A study of Mus musculus with 1699 samples.

Results

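The genes described here encode the potassium channels of sorted Pitx3-GFP cells of the mouse ventral midbrain, with the subunits that attach to them. A gene was included when it is protein-coding, its symbol begins with Kcn and its RPKM (reads scaled by gene length and sequencing depth) was over 10 in at least 1% of the cells kept, which 63 of 90 such genes met. The 4 genes of G-protein-gated channels, Kcnj3, Kcnj5, Kcnj6 and Kcnj9, were left out by name, as was the non-coding Kcnq1ot1. The measured values themselves therefore chose the members, and a rare gene could enter through a single group in which it was high. Just inside the limit were Kcnk16 at 1.73% of cells, Kcnj14 at 1.94% and Kcng3 at 2.01%, and just outside were Kcnj10 at 0.902%, with Kcng4 and Kcnj13 both at 0.833%.

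Cells came from Pitx3eGFP/wt mice (Pitx3tm1Mli heterozygotes), in which eGFP was targeted into 1 allele of Pitx3, at embryonic days 13.5, 15.5 and 18.5 (E13.5, E15.5, E18.5) and postnatal days 1, 7 and 90 (P1, P7, P90), and from Pitx3eGFP/eGFP homozygotes, which lack an intact allele, at E13.5 and P1. All were sorted for GFP fluorescence, so every group is defined by use of the Pitx3 locus, and each cell was sequenced with Smart-seq2, a full-length method without molecular identifiers. Of the deposited cells 84.8% were kept, 1119 of them heterozygote, with 12.5% of these at E13.5 and as many at E15.5, 16.5% at E18.5, and after birth 22.9% (P1), 6.52% (P7) and 29.04% (P90). The homozygotes gave plates of 87, 22 and 70 kept cells at E13.5 and of 73 and 70 at P1. No animal is named for any cell, although several were used at each stage, so each stage and genotype was 1 sample without a replicate, no test between groups was possible, and the 95% intervals given after shares cover counting error between cells only.

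Kept cells held between 100007 and 8634201 reads, with group medians between 753256 (E13.5 homozygote) and 2357900 (E13.5 heterozygote). Between 90% and 100% of the kept cells of each group had at least 3 of 4 neuron markers over an RPKM of 10. At P7, 56.1% of deposited cells were left out for at least 3 markers of a non-neuronal type, most of them astrocyte markers. Stages were dissociated with 3 different kits (embryonic, P1 and P7, and papain for P90), so kit and stage cannot be told apart where a comparison crosses kits, as every comparison of P90 with an earlier stage does. ERCC spike-in RNA also followed stage. All E18.5 and P90 cells carried it, no heterozygote cell of E13.5, E15.5 or P7 did, and P1 held both kinds. Spike-in and stage therefore cannot be told apart between E13.5 and P90 either, and E18.5 to P7 pools both kinds. Within stages, cells were assigned by an RPKM over 150 of Slc6a3 (the dopamine transporter), Nxph4 (a neurexophilin) or Gad2 (a GABA-synthesising enzyme). At P90 these classes held 20.3% (66 cells), 45.2% and 17.5% (57 cells), 26 cells passed for more than 1 gene and 29 for none, and 7, 28 and 12 P90 cells lay between 100 and 200 RPKM of the respective gene. The classes are named here by their rule, because the Gad2-high cells carried some GABA markers and not others. Slc6a3-high P90 cells had a median Th (tyrosine hydroxylase) of 5565 RPKM and Nxph4-high cells a median Slc17a6 (a vesicular glutamate transporter) of 306.7 RPKM, whereas the Gad2-high cells carried a median Slc17a6 of 142.5 RPKM with a median of 0 for Gad1. Slc32a1, the vesicular GABA transporter, passed an RPKM of 10 in 63.2% of the Gad2-high P90 cells, with a median of 15.8 RPKM, against 1.52% of the Slc6a3-high and 0.680% of the Nxph4-high cells.

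Potassium channels let potassium leave the cell and so repolarise the membrane after a spike and hold it near rest. Voltage-gated Kv channels open on depolarisation, small-conductance SK channels (Kcnn) open on calcium and shape the afterhyperpolarisation, and 2-pore channels (Kcnk) carry background leak. In adult dopamine neurons, SK3 (Kcnn3) and the A-type current of Kv4 channels (Kcnd) with their calcium-binding KChIP subunits (Kcnip) are known to set the rate and regularity of pacemaker firing.

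The 63 members fell into 13 families: 11 auxiliary subunits (Kcnab, Kcne, Kcnip, Kcnmb, Kcnrg), 9 of the 2-pore family, 7 of the EAG, ERG and ELK group (Kcnh), 7 silent Kv subunits, 5 Kv1, 4 Kv3, 4 Kv7, 4 calcium-activated, 4 inward rectifiers, 3 Kv4, 2 Kv2, 2 sodium-activated channels and Kcnu1. The promoters of 3 of them are shown because these genes separate the adult classes in opposite directions. Kcnn3 (chr3:89520164-89675132, plus strand) encodes SK3, Kcnd3 (chr3:105452330-105674002, plus strand) encodes Kv4.3, and Kcnd2 (chr6:21215503-21729805, plus strand) encodes Kv4.2. These positions are those of GENCODE. Each sequence below gives the 250 bases before the start of the gene in RefSeq (GRCm38.p6), which lies upstream of the GENCODE start for Kcnd3 and Kcnd2, at chr3:89519914-89520163, chr3:105451640-105451889 and chr6:21215096-21215345 respectively, on the plus strand, with CG dinucleotides in capitals. No exon of GENCODE lies in these windows other than that of the antisense RNA Kcnd3os in the second.
Kcnn3: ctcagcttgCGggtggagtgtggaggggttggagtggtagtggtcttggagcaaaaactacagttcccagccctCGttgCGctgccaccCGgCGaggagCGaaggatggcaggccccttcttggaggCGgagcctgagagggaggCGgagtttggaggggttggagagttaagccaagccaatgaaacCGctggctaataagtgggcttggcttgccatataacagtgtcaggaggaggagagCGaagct
Kcnd3: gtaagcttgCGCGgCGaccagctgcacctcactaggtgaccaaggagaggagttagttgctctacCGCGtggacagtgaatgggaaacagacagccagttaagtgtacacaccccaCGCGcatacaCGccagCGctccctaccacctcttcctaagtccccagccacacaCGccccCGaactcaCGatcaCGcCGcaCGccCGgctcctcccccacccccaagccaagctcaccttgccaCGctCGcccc
Kcnd2: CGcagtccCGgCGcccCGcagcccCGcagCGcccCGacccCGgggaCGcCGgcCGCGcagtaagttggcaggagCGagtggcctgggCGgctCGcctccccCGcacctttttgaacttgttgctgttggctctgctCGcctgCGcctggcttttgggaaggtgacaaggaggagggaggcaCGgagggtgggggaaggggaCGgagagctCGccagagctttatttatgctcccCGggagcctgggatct
They held 10, 18 and 22 CG dinucleotides, against a median of 6 over all promoters of this length and 8 over those of the members, and 64.4%, 80.3% and 86.7% of all promoters held no more. Letters TAATCC, bound by the bicoid class of homeodomain proteins to which Pitx3 belongs, were searched on both strands and stood in 6.25% of 32851 promoters and in 1 of 67 promoters of the 45 members matched. AAGGTCA, a nuclear receptor half-site, stood in 4.08% and in 3 of 67. None of the 3 windows shown holds either run of letters.

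**Figure D1:**
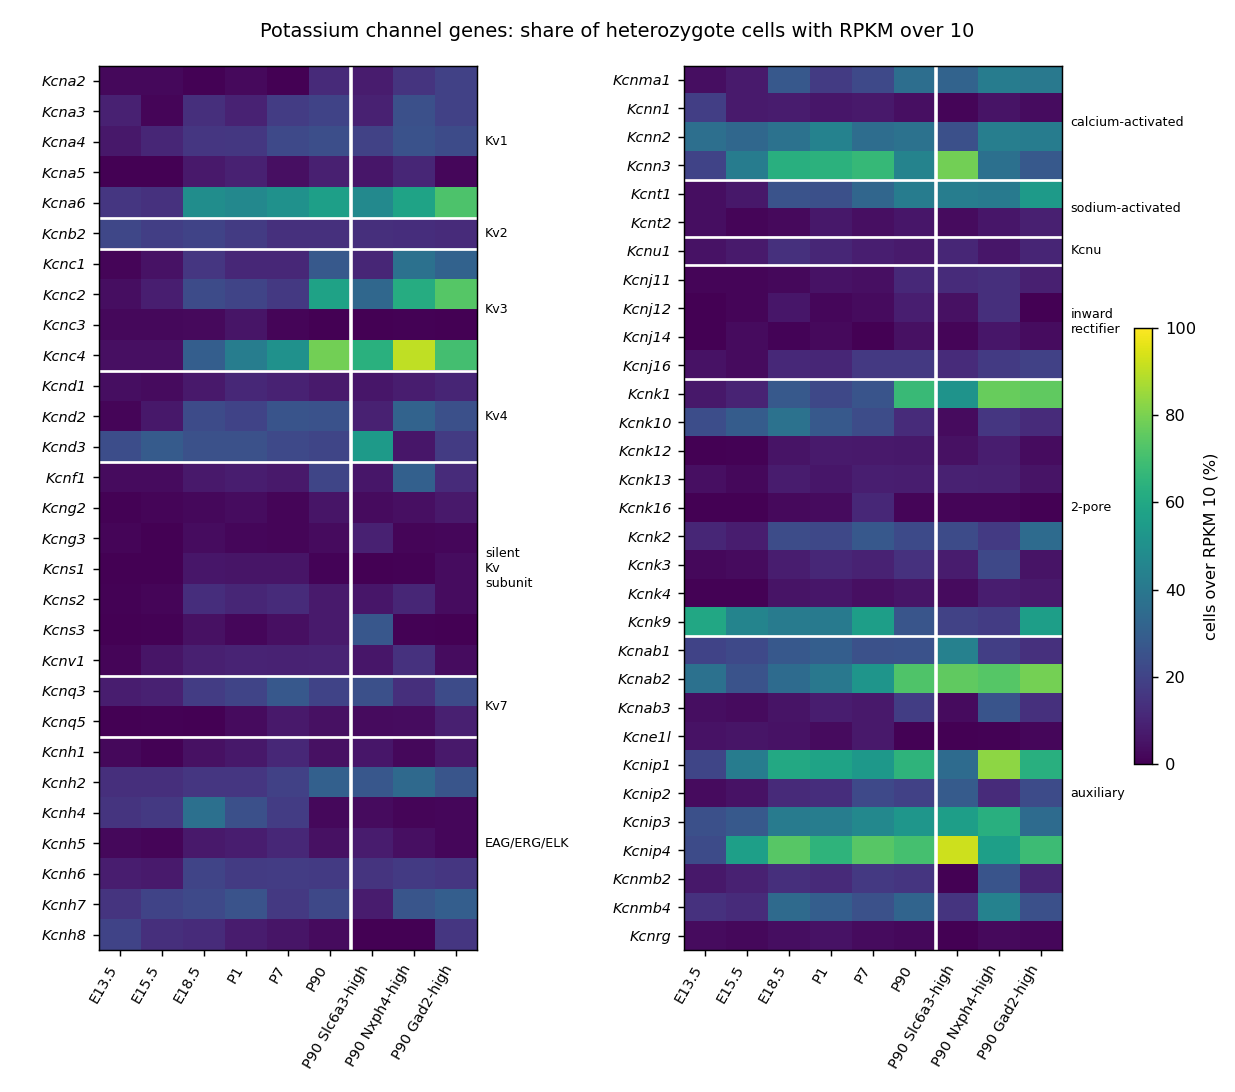
Share of heterozygote cells with an RPKM over 10 (percent, colour scale from dark at 0 to yellow at 100) for the potassium channel genes reported here (rows, by family) at 6 stages and in the 3 classes of P90 (columns). Kcnip4 is brightest in the Slc6a3-high cells, and Kcnc4 and Kcnc2 are brighter at P90 than at E13.5.

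Few channel genes were used by most cells. Among the widely used members, Kcnip4 passed an RPKM of 10 over all kept cells in 55.7%, Kcnip1 in 50.1%, Kcnab2 in 45.3%, Kcnk9 in 44.9% and Kcnn3 in 44.6%. A heterozygote cell held a median of 6 members over this level at E13.5 and 7 at E15.5, then 12 at E18.5, and after birth 11 (P1), 12 (P7) and 14 (P90), and with every cell thinned to 100000 reads the medians were 6, 7, 11, 11, 12 and 13. The number of members found in at least 10% of cells was 20 at E13.5, 36 at E18.5 and 37 at P90. Median genes detected per cell also differed, from 6824 at E13.5 to 8766 at P90. The number of channel genes per cell thus stood higher from E18.5 on, at matched reads as well. Genes detected were counted by any read, and no count of all genes over an RPKM of 10 is given. Whether the rise was particular to channel genes is therefore not known.

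Between E13.5 and P90, more channel genes were higher than lower in the heterozygotes. A gene was tested when its mean RPKM was at least 5 in either group and called when its mean differed at least 2-fold after 0.5 RPKM was added to both. Of 38 members tested, 19 were higher and 7 lower at P90, where 20.3% and 22.6% of all 11086 genes tested were, and the median log2 ratio was 0.88 for the members against -0.13 for all genes. The 25 other members were too low to test. Stage shares pool all kept cells, whose classes differed, with 17.9%, 42.7% and 20.3% Slc6a3-high and 27.1%, 8.65% and 45.2% Nxph4-high cells at E13.5, E18.5 and P90, and the part of this in the stage differences was not tested beyond the values within classes given further on. With means of log values the counts were 10 higher and 1 lower, with no share of all genes given at that setting. By family, 3 of 3 tested Kv3 genes and 6 of 9 tested auxiliary genes were higher with none lower, whereas 2 of 4 tested Kcnh genes were lower with none higher. In the 2-pore family 1 of 4 tested was higher and 2 were lower.

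The 3 Kv3 channels tested, of a family that repolarises quickly and allows fast firing, were higher at P90 than at E13.5. Kcnc4 passed an RPKM of 10 in 4.29% of cells at E13.5 and 4.29% at E15.5, in 29.7% at E18.5, and after birth in 42.2% (P1), 50.7% (P7) and 78.8% (P90). The mean of Kcnc4 was 1.36 RPKM at E13.5 and 55.1 RPKM at P90, and the difference in share was 74.5 percentage points (67.8 to 79.2). Shares of Kcnc4 were lowest at the earliest stages and highest at P90, with the embryonic and adult intervals apart. Kcnc2 went from 3.57% (1.17 to 8.14%) at E13.5 to 57.5% (51.96 to 62.98%) at P90, and Kcnc1 from 1.43% (0.173 to 5.07%) to 28% (23.2 to 33.2%). For Kcnc2 the step came late, since E18.5, P1 and P7 stood at 22.7%, 20.3% and 16.4%.

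Among the KChIP subunits of Kv4 channels, Kcnip4 and Kcnip1 were higher by E18.5 than at E13.5. Kcnip4 passed in 22.9% of cells at E13.5 and 56.4% at E15.5, in 74.1% at E18.5, and after birth in 64.8% (P1), 73.97% (P7) and 70.5% (P90), with a mean of 26.2 RPKM at E13.5 and 108.05 RPKM at P90. Over all cells the gain of Kcnip4 thus lay between E13.5 and E18.5, and its values from E18.5 on did not order by age. Within Nxph4-high cells it went from 18.03% at E18.5 to P7 to 56.5% at P90. In Slc6a3-high cells it went from 90.8% to 92.4%, and in Gad2-high cells from 55.7% to 68.4%. Kcnip1 gave 20.7% at E13.5, 60.5% at E18.5 and 65.2% at P90, a difference of 44.5 percentage points (35.4 to 52.2) between first and last. Kcnip3, which is also known as a calcium-dependent transcriptional repressor, passed in 24.3% at E13.5 and 52.6% at P90. Kcnip2 went from 2.86% to 19.4%. Of the pore-forming subunits, Kcnd2 (Kv4.2) went from 1.43% (0.173 to 5.07%) to 25.2% (20.6 to 30.3%) and Kcnd3 (Kv4.3) gave 23.6% (16.8 to 31.5%) and 20.9% (16.6 to 25.8%), which overlap.

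Leak channels of the 2-pore family went in both directions. Kcnk1 (TWIK1) passed in 6.43% of cells at E13.5 and 10% at E15.5, in 28.1% at E18.5, and after birth in 21.5% (P1), 26.03% (P7) and 67.7% (P90), with a mean of 3.55 RPKM at E13.5 and 39.2 RPKM at P90. Kcnk9 (TASK3, an acid-sensitive leak channel) went the other way, in 60% of cells at E13.5 and 45% at E15.5, in 41.6% at E18.5, and after birth in 41.4% (P1), 56.2% (P7) and 26.5% (P90), and its mean went from 61.5 to 9.61 RPKM. Both genes had their widest step between P7 and P90, where the dissociation kit and the spike-in changed as well. Within P1, Kcnk9 passed in 50.3% of heterozygote cells without spike-in and in 25.8% of those with it. The part of kit and spike-in in these steps was not tested. Kcnk10 (TREK2, a mechanosensitive leak channel) was highest at E18.5 with 37.8% (30.8 to 45.2%) and lowest at P90 with 12.3% (8.94 to 16.4%). Among related genes, Kcnk2 (TREK1) gave 10.7% at E13.5 and 22.5% at P90, and Kcnk3 (TASK1) 2.14% and 14.2%.

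**Figure D2:**
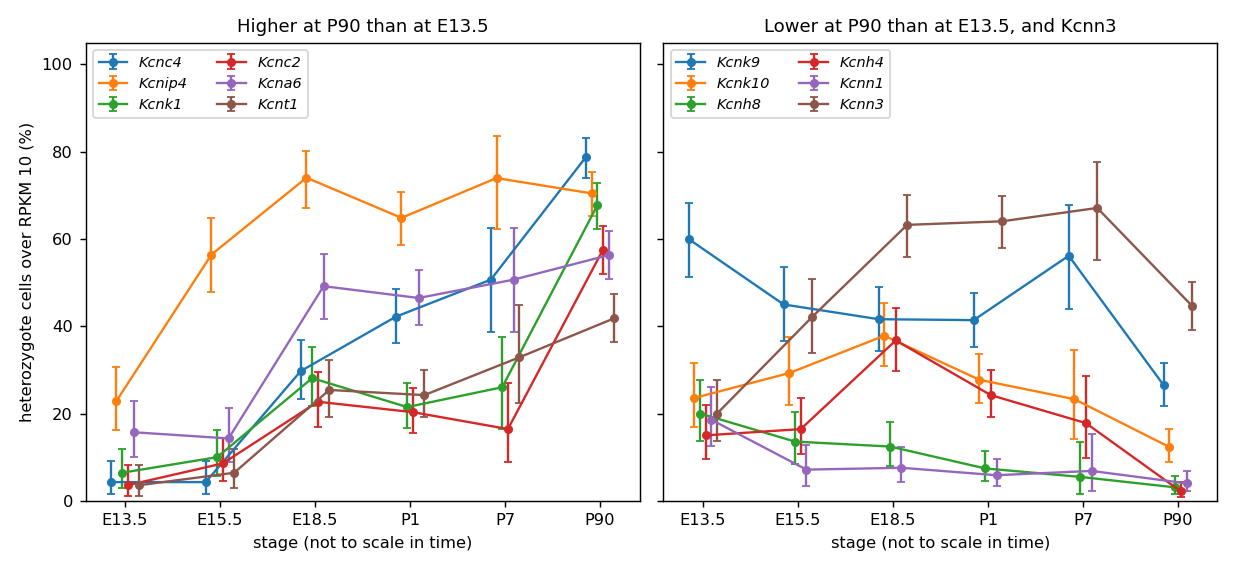
Share of heterozygote cells with an RPKM over 10 (percent, y axis) at each of 6 stages (x axis) for members of the main families, with exact 95% intervals as bars. Kcnc4 and Kcnk1 reach their highest share at P90 (78.8% and 67.7%), while Kcnk9 and Kcnh4 are lowest there (26.5% and 2.15%).

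The ELK channels Kcnh4 and Kcnh8, slow voltage-gated channels of the Kcnh family, had their highest shares over all cells before birth and their lowest at P90. Kcnh4 was at 15% at E13.5, peaked at 36.8% (29.8 to 44.1%) at E18.5 and stood at 2.15% (0.870 to 4.39%) at P90. Kcnh8 passed in 20% of cells at E13.5 and 13.6% at E15.5, in 12.4% at E18.5, and after birth in 7.42% (P1), 5.48% (P7) and 3.08% (P90). At P90, Kcnh8 passed in Gad2-high cells but in no Slc6a3-high or Nxph4-high cell, as given further on. Kcnh2, the ERG channel of the same family, went the other way in share, from 13.6% (8.37 to 20.4%) to 30.8% (25.8 to 36.1%), with means of 7.46 and 9.85 RPKM that were not 2-fold apart.

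SK channels followed 3 courses. Kcnn3 (SK3) passed in 20% of cells at E13.5 and 42.1% at E15.5, in 63.2% at E18.5, and after birth in 64.1% (P1), 67.1% (P7) and 44.6% (P90), so over all cells it was higher around birth than at either end. Between E18.5 and P90 the Slc6a3-high share of cells went from 42.7% to 20.3%, and within Slc6a3-high cells Kcnn3 stood at 79.1% at E18.5 to P7 and 78.8% at P90, against 65.6% and 36.7% within Nxph4-high cells. Kcnn2 (SK2) stayed between 33.6% and 44.5% at all 6 stages, with intervals that overlap between the lowest and the highest. Kcnn1 (SK1) went from 18.6% (12.5 to 26.02%) at E13.5 to 4% (2.15 to 6.74%) at P90. Kcnma1, the pore of the large-conductance BK channel, went in share from 3.57% (1.17 to 8.14%) to 36.3% (31.1 to 41.8%). Its partner Kcnmb4 gave 14.3% and 32.3%, a difference of 18.02 points that was 7.45 points at matched depth, and 31.5% of its exon bases lie under antisense genes whose reads an unstranded library cannot separate.

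Of the Kv1 family and its cytoplasmic beta subunits, Kcna6 (Kv1.6) went from 15.7% (10.1 to 22.8%) at E13.5 to 56.3% (50.7 to 61.8%) at P90. The antisense gene Gm26673 overlaps 39.6% of the exon bases of Kcna6. Kcnab2 went from 37.1% (29.1 to 45.7%) to 72.6% (67.4 to 77.4%) and Kcnab1 from 20% to 25.2%. Kcna2, an axonal subunit, reached 12% at P90, and Kcna1 passed in 0.555% of kept cells and was no member. Of the Kv2 delayed rectifiers, Kcnb2 went from 21.4% to 13.8%. Kcnt1, a sodium-activated channel, went from 3.57% (1.17 to 8.14%) to 41.8% (36.4 to 47.4%), and its relative Kcnt2 stood at 3.57% and 6.15%.

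Kcnq3, a voltage-gated channel of the Kv7 family, went from 7.86% at E13.5 to 20% at P90. Kcnu1, a channel best known from sperm, passed in 5% and 7.38%. Inward rectifiers were sparse throughout. Kcnj11, the pore of the ATP-sensitive channel that couples firing to metabolism, passed in 1.43% (0.173 to 5.07%) at E13.5 and 11.4% (8.14 to 15.3%) at P90, and Kcnj16, the inward rectifier with the highest mean at P90, in 5% and 16.6%. Kcnj8, the other pore of that channel family, passed in 0 of 1441 cells, where 3 counts of the total would be 0.208%.

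The neurons of P90 were not alike in their channel genes. Between Slc6a3-high and Nxph4-high cells, 6 of 35 members tested were 2-fold higher and 12 lower in the Slc6a3-high cells, where 5.64% and 8.67% of all genes tested were, with a median log2 ratio of -0.33 for the members and -0.11 for all genes. Against Gad2-high cells, 6 of 33 were higher and 11 lower, where 6.42% and 8.81% of all genes were, with medians of -0.50 and -0.08. Both comparisons share the Slc6a3-high cells. With means of log values fewer members were lower in both, as given in the last section. In the first, 2 of 3 tested Kv3 genes were lower and none higher, whereas auxiliary genes went both ways, with 2 of 9 higher and 4 lower.

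Kcnip4, Kcnn3 and Kcnd3 stood highest in the dopamine transporter cells. The RPKM of Kcnip4 ran from 0 to 869 with a median of 250.8 over the 66 Slc6a3-high cells, from 0 to 326.9 with a median of 21.3 over the Nxph4-high cells, and from 0 to 533 with a median of 68.1 over the 57 Gad2-high cells. It passed 10 in 92.4% (83.2 to 97.5%), 56.5% (48.05 to 64.6%) and 68.4% (54.8 to 80.1%) of them, and the ranges of single cells overlap although the medians stand apart. Kcnn3 had a median of 39.2 RPKM and a highest cell of 285.3 RPKM in the Slc6a3-high class, where 78.8% (66.98 to 87.9%) of cells passed, against 36.7% (28.9 to 45.1%) of the Nxph4-high and 28.1% (16.97 to 41.5%) of the Gad2-high cells, whose medians were 0.888 and 0.178 RPKM. Its mean was 60.04 RPKM against 10.5 and 8.54. Kcnd3 passed in 54.5% (41.8 to 66.9%), 6.12% (2.84 to 11.3%) and 17.5% (8.75 to 29.9%) of the classes in that order, with means of 15.6, 1.62 and 5.14 RPKM.

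Kcns3, Kcnab1 and Kcnq3 passed in fewer of the Slc6a3-high cells than Kcnip4, Kcnn3 and Kcnd3 did. Kcns3, an electrically silent modifier subunit, passed in 27.3% (17.03 to 39.6%) of the Slc6a3-high, 0.680% of the Nxph4-high and 0 of 57 Gad2-high cells, for which 3 counts of the total would be 5.26% and the exact interval reaches 6.27%. Kcnab1, a beta subunit that speeds inactivation of Kv1 channels, passed in 43.9%, 18.4% and 14.04%, and the difference from the Gad2-high cells had the same sign in 2 of 4 plates. Kcnq3 passed in 24.2% and 13.6% of Slc6a3-high and Nxph4-high cells, a difference of 10.6 percentage points (-0.235 to 23.1). Kcnip3 passed in 56.1% of the Slc6a3-high and 63.3% of the Nxph4-high cells but in 35.1% of the Gad2-high cells.

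**Figure D3:**
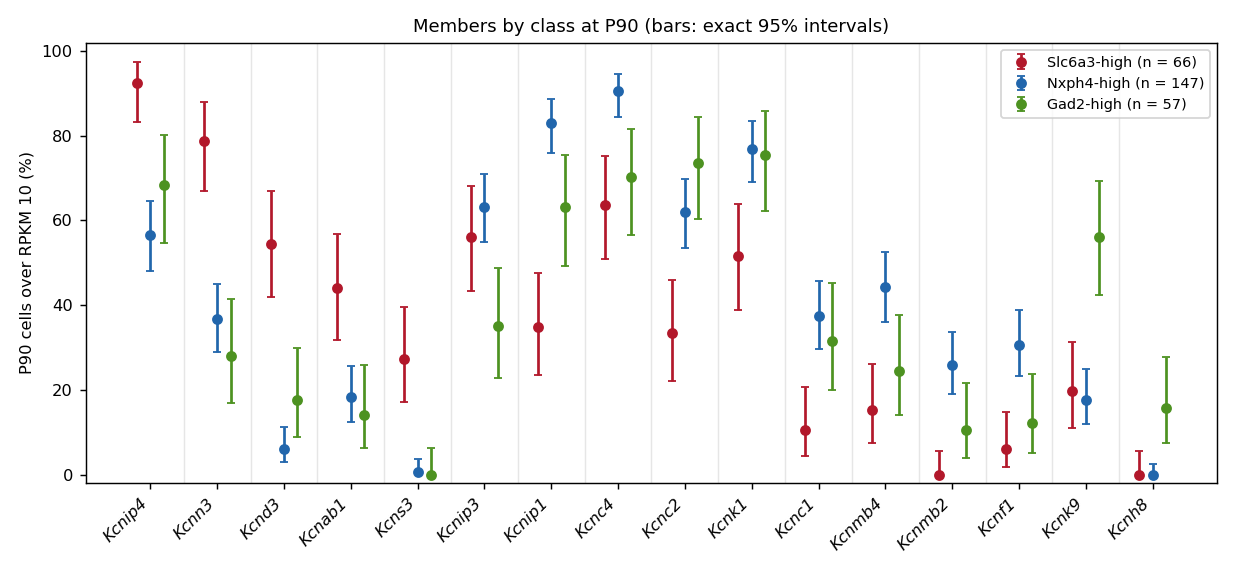
Share of P90 cells with an RPKM over 10 (percent, y axis) for selected members in the Slc6a3-high, Nxph4-high and Gad2-high classes, with exact 95% intervals as bars. Kcnip4, Kcnn3, Kcnd3 and Kcns3 are highest in Slc6a3-high cells, and Kcnip1, Kcnc4, Kcnc1 and Kcnmb2 in Nxph4-high cells.

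**Figure D4:**
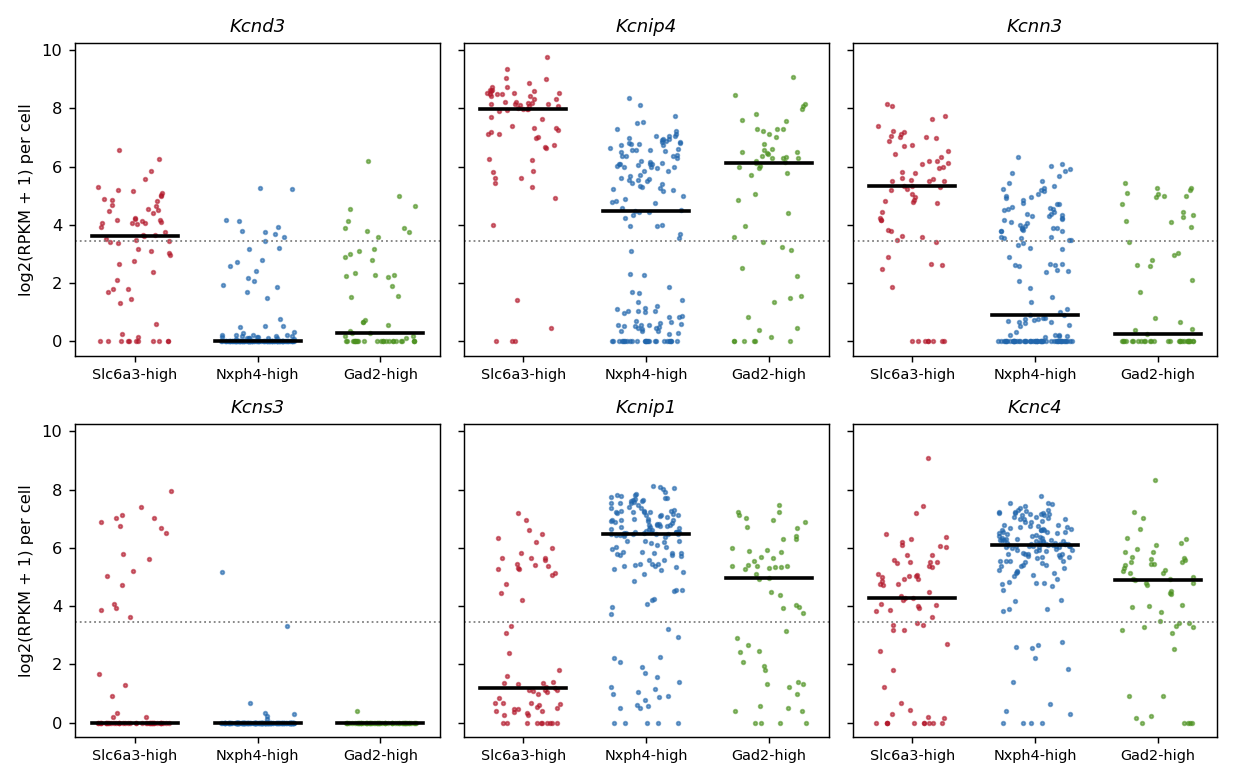
Expression of single P90 cells (points, y axis log2 of RPKM plus 1) in the 3 classes (x axis) for 6 members, with the median of each class as a black line and an RPKM of 10 as a dotted line. Single cells of the classes overlap for each gene, and the median of Kcnip4 is 250.8 RPKM in Slc6a3-high cells against 21.3 RPKM in Nxph4-high cells.

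Shares of the tested Kv3 genes and of BK beta subunits were lowest in the Slc6a3-high cells, though not always clearly apart from the Gad2-high cells. Kcnc4 passed in 63.6% (50.9 to 75.1%) of Slc6a3-high, 90.5% (84.5 to 94.7%) of Nxph4-high and 70.2% (56.6 to 81.6%) of Gad2-high cells. The Slc6a3-high and Gad2-high intervals of Kcnc4 overlap. Kcnc1 gave 10.6%, 37.4% and 31.6%, and Kcnc2 33.3%, 61.9% and 73.7%, so that the 3 Kv3 genes were lowest in the same class. Kcnmb2, a BK beta subunit that causes inactivation, passed in 0 of 66 Slc6a3-high cells (up to 4.55% by 3 counts and 5.44% by the exact interval), 25.9% (18.99 to 33.7%) of Nxph4-high and 10.5% (3.96 to 21.5%) of Gad2-high cells. Kcnmb4 gave 15.2%, 44.2% and 24.6%. The median number of members per cell was 12, 15 and 14 in the classes, whereas the median number of genes detected was highest in the Slc6a3-high cells, at 8992 against 8781 and 8918.

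Further members of the Nxph4-high and Gad2-high cells included KChIP1 and Kv4.2. Kcnip1 passed in 34.8% (23.5 to 47.6%), 82.99% (75.9 to 88.7%) and 63.2% (49.3 to 75.6%) of Slc6a3-high, Nxph4-high and Gad2-high cells, the reverse order of Kcnip4, and its difference between the first pair was -48.1 percentage points (-59.8 to -34.3). Kcnd2 gave 9.09%, 31.97% and 24.6%, the reverse of Kcnd3. Kcnk1 gave 51.5%, 76.9% and 75.4%. Kcna6 was also among the 5 members whose share in Slc6a3-high cells lay furthest below that in Gad2-high cells. Kcnf1, a silent subunit, was at 30.6% in Nxph4-high cells against 6.06% in Slc6a3-high cells, and Kcnn2 at 42.9% and 42.1% against 24.2%. Kcnk9 and Kcnh8 instead stood out in Gad2-high cells, with 56.1% (42.4 to 69.3%) for Kcnk9 against 19.7% and 17.7%, and 15.8% (7.48 to 27.9%) for Kcnh8 against 0 cells of both others. For Kcnh8, 3 counts would be 4.55% of the Slc6a3-high and 2.04% of the Nxph4-high cells, and the exact intervals reach 5.44% and 2.48%. The differences between Slc6a3-high and Nxph4-high cells had the same sign in 4 of 4 P90 plates for Kcnip4 (33.3 to 39.8 points), Kcnn3 (21.4 to 59.5 points), Kcnd3 (26.4 to 56.6 points), Kcnip1 (-70.1 to -33.5 points) and Kcnc4 (-51.4 to -13.3 points), and in 3 of 4 for Kcnk1 and Kcnf1.

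Some of these differences were present around birth and others were not. Among E18.5 to P7 cells, with Slc6a3-high cells the most frequent and 61 Nxph4-high and 61 Gad2-high cells, 4 of 31 members tested were higher and 6 lower in Slc6a3-high than in Nxph4-high cells (4.85% and 6.66% of all genes), and 4 of 36 higher and 7 lower than in Gad2-high cells (4.7% and 5.06% of all genes). Kcnip4 was at 90.8% (85.97 to 94.4%), 18.03% (9.36 to 29.98%) and 55.7% (42.4 to 68.5%), and its difference between Slc6a3-high and Nxph4-high cells was 72.7 percentage points (60.4 to 81.1) against 35.96 percentage points (24.1 to 45.1) at P90. Kcnn3 was at 79.1%, 65.6% and 40.98%, and Kcnab1 at 39.8%, 8.20% and 11.5%. Kcnd3 at 30.6%, 6.56% and 31.1% stood apart from the Nxph4-high but not the Gad2-high cells. Kcnip1, which separated the adult classes, was at 61.2% (54.1 to 67.9%), 70.5% (57.4 to 81.5%) and 55.7% (42.4 to 68.5%), with overlapping intervals.

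The Slc6a3-high cells themselves differed with age. Of 31 members tested, 5 were 2-fold higher and 9 lower at P90, where 11.7% and 18.7% of all genes were, with median log2 ratios of -0.23 for the members and -0.12 for all genes. With means of log values 4 were higher and 2 lower, so the balance of the counts depended on how the mean was taken. No share of all genes is given at that setting, so whether the members differed from all genes there is not known. The largest gain was that of Kcnab2, from 36.4% (29.8 to 43.4%) to 75.8% (63.6 to 85.5%). Kcnk1 went from 26.2% to 51.5%, a difference of 25.3 percentage points (11.9 to 38.2), but its means of 22.3 against 12.8 RPKM were not 2-fold apart and at a threshold of 50 RPKM its difference was -1.65 points. Kcns3 went from 3.398% (1.38 to 6.88%) to 27.3% (17.03 to 39.6%), Kcnd3 from 30.6% to 54.5% and Kcnc4 from 39.8% to 63.6%. The mean of Kcnd3 was not 2-fold higher. Kcnip1 went from 61.2% (54.1 to 67.9%) to 34.8% (23.5 to 47.6%), opposite to its course over all cells, and Kcnk10 from 33.01% to 3.03%. Kcnh4 went from 26.7% to 3.03%, Kcnk9 from 36.4% to 19.7% and Kcnmb4 from 30.1% to 15.2%. The E18.5 to P7 cells were with and without spike-in, and all P90 cells had it. The 52 heterozygote P1 cells with spike-in over 150 RPKM of Slc6a3 gave 36.5% for Kcnh4, 25% for Kcnk9 and 34.6% for Kcnmb4. For Kcnk9 this lay nearer to the P90 value than the pooled share did. Kcnn3 gave 79.1% and 78.8%, a difference of -0.338 percentage points (-12.7 to 9.80).

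The other classes held part of this in common. In Nxph4-high cells, 8 of 35 members tested were higher and 7 lower at P90 than at E18.5 to P7 (13.7% and 18% of all genes), and in Gad2-high cells 7 of 37 were higher and 10 lower (14.5% and 17.9%). Kcnk1 went from 29.5% to 76.9% in Nxph4-high and from 24.6% to 75.4% in Gad2-high cells. Kcnc4 went from 34.4% (22.7 to 47.7%) to 90.5% (84.5 to 94.7%) in Nxph4-high cells, and Kcnc2 from 22.95% (13.2 to 35.5%) to 73.7% (60.3 to 84.5%) in Gad2-high cells. Kcnn3 went from 65.6% (52.3 to 77.3%) to 36.7% (28.9 to 45.1%) and Kcnn2 from 70.5% (57.4 to 81.5%) to 42.9% (34.7 to 51.3%) in Nxph4-high cells. Kcnip4 went from 18.03% (9.36 to 29.98%) to 56.5% (48.05 to 64.6%) there, with the intervals apart.

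The homozygotes address which channel genes differ without Pitx3. Pitx3 itself had a mean of 18.8 RPKM in E13.5 homozygote against 416 RPKM in heterozygote cells, and of 8.68 against 115.95 RPKM at P1, which follows the labels. All homozygote cells carried ERCC spike-in RNA and no E13.5 heterozygote cell did, so at E13.5 spike-in and genotype cannot be told apart. At P1 the homozygote cells of 2 plates were compared with the 93 heterozygote cells with spike-in, which came from 1 plate. At E13.5, 1 of 22 members tested was 2-fold higher in the homozygotes and 2 were lower, where 2.62% and 3.12% of all genes were. At P1, 2 of 33 were higher and 2 lower, where 3.25% and 1.98% of all genes were, and with the heterozygote cells without spike-in added, 0 were higher and 1 lower. Median log2 ratios of the members were -0.27 at E13.5 and 0.04 at P1, against -0.04 and 0.05 for all genes.

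Of the 3 genes that stood highest in Slc6a3-high cells, Kcnn3 and Kcnip4 were lower in the homozygotes at both stages. Kcnn3 passed an RPKM of 10 in 8.94% (5.20 to 14.1%) of homozygote and 20% (13.7 to 27.6%) of heterozygote cells at E13.5, a difference of -11.1 percentage points (-19.2 to -3.36), and in 45.5% (37.1 to 53.99%) and 65.6% (55.02 to 75.1%) at P1, a difference of -20.1 percentage points (-32.03 to -7.14). Heterozygote P1 cells without spike-in stood at 63.2%, like those with it. Kcnip4 passed in 12.3% and 22.9% at E13.5, a difference of -10.6 percentage points (-19.2 to -2.22), and in 58.04% and 75.3% at P1, a difference of -17.2 percentage points (-28.4 to -4.83), but the P1 heterozygote cells without spike-in were at 58.9% (50.9 to 66.5%), next to the homozygotes. Kcnab1 passed in 16.1% (10.5 to 23.1%) of homozygote and 38.7% (28.8 to 49.4%) of heterozygote cells at P1, with 24.5% in the cells without spike-in. At E13.5 its difference was -6.03 percentage points (-14.6 to 2.19). Kcnd3, the other of the 3, gave 1.57 percentage points (-8.05 to 10.8) at E13.5 and 1.89 percentage points (-9.503 to 12.5) at P1, on the opposite side with intervals that include 0.

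The share of Slc6a3-high cells moved with genotype as well, since 10.5% of homozygote cells at P1 (15 cells) and 55.9% of heterozygote cells with spike-in (52 cells) passed 150 RPKM of Slc6a3, and 0.559% against 17.9% did at E13.5. Over all P1 heterozygote cells, with and without spike-in, 39.1% were Slc6a3-high and 3.125% passed for more than 1 class gene. The P1 share thus also differed between heterozygote cells with and without spike-in. Among P1 cells at or below that level (41 of them heterozygote), Kcnn3 passed in 41.4% against 43.9% (-2.496 points, -19.6 to 13.98) and Kcnip4 in 57.8% against 53.7% (4.15 points, -12.6 to 21.2), so these differences were no longer larger than counting error. Among the cells over that level, Kcnn3 passed in 80% against 82.7% (-2.69 points, -29.1 to 15.3), Kcnip4 in 60% against 92.3% (-32.3 points, -57.005 to -9.57) and Kcnab1 in 6.67% against 50% (-43.3 points, -57.5 to -16.7). In those cells Kcnd3 was higher in the homozygotes, at 53.3% against 25% (28.3 points, 1.62 to 52.3), while at or below that level it gave 21.1% against 19.5%. For Kcnn3 the genotypes therefore overlapped within either set of P1 cells, while Kcnip4 and Kcnab1 differed in the Slc6a3-high cells, on 15 homozygote cells. At E13.5, the cells at or below that level gave 8.99% against 14.8% for Kcnn3 (-5.79 points, -14.1 to 1.60) and 12.4% against 20.9% for Kcnip4 (-8.51 points, -17.8 to 0.0422), and both intervals include 0. The part of the class shares in the genotype differences was not tested beyond these values.

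**Figure D5:**
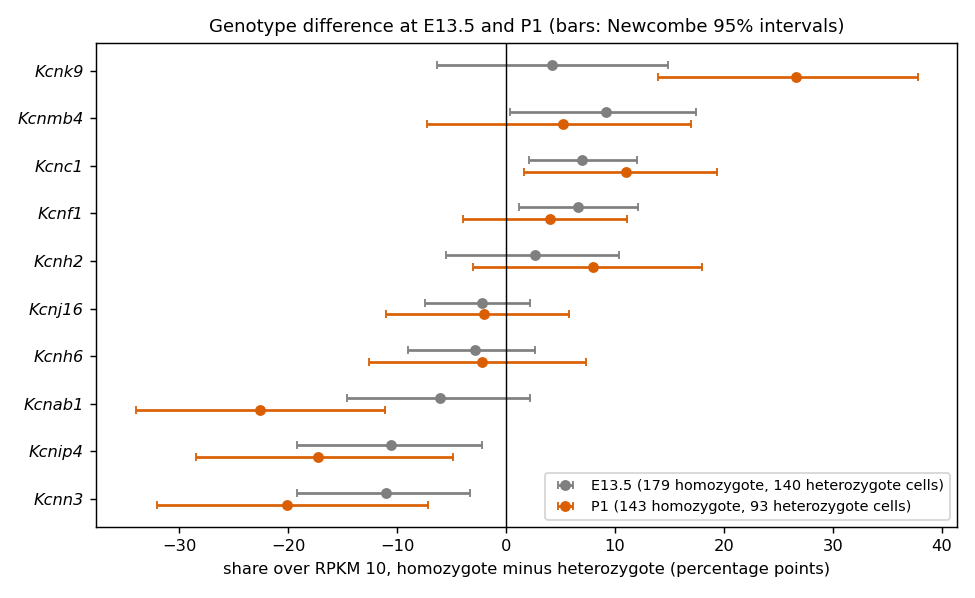
Difference in the share of cells with an RPKM over 10 (homozygote minus heterozygote, percentage points, x axis) at E13.5 (grey) and, for spike-in cells, at P1 (orange) for 10 members, with Newcombe 95% intervals as bars. Kcnn3 and Kcnip4 lie below 0 at both stages and Kcnc1 above 0 at both, with intervals that exclude 0.

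Some members had higher shares in the homozygotes at 1 stage or both. The widest of these at E13.5 was that of Kcnk10, at 37.99% against 23.6%, a difference of 14.4 percentage points (4.17 to 24.03), with 37.6% against 22.6% at or below 150 RPKM of Slc6a3 (15.03 points, 4.19 to 24.9) and 45.8% against 18.4% in Nxph4-high cells (27.3 points, 8.10 to 42.9). At P1 the difference of Kcnk10 was 1.63 percentage points (-10.8 to 13.6). Kcnma1 differed by 9.28 percentage points (3.16 to 15.3) at E13.5 and by -0.150 percentage points (-11.1 to 9.94) at P1. At P1, Kcnmb2 differed by 14.4 percentage points (4.24 to 23.5) and Kcnv1, a silent subunit, by -8.01 percentage points (-16.7 to -0.766), while at E13.5 the intervals of both included 0. Kcnk10, Kcnma1, Kcnmb2, Kcnv1 and Kcnh8 were added to this genotype comparison after their values were seen, because their intervals excluded 0 at 1 stage. Kcnk9 passed in 52.4% (43.9 to 60.9%) of homozygote and 25.8% (17.3 to 35.9%) of heterozygote cells with spike-in at P1, but in 50.3% (42.4 to 58.2%) of heterozygote cells without it, next to the homozygotes. Within the spike-in cells of P1 it passed in 52.3% against 26.8% at or below 150 RPKM of Slc6a3 (25.5 points, 8.14 to 39.5) and in 53.3% against 25% over it (28.3 points, 1.62 to 52.3). At E13.5 Kcnk9 gave 64.2% against 60%, a difference of 4.25 percentage points (-6.36 to 14.9). The 2 homozygote plates of P1 gave 49.3% and 55.7% for Kcnk9. Kcnc1 was at 8.38% against 1.43% at E13.5, a difference of 6.95 percentage points (2.09 to 12.04), and at 19.6% against 8.60% at P1, a difference of 10.98 percentage points (1.60 to 19.4), with 12.9% in the P1 heterozygote cells without spike-in. At or below 150 RPKM of Slc6a3, Kcnc1 passed in 7.87% against 1.74% at E13.5 (6.13 points, 0.746 to 11.2) and in 18.8% against 12.2% at P1 (6.55 points, -8.01 to 16.8), where the interval included 0, whereas P1 cells over that level gave 26.7% against 5.77% (20.9 points, 2.29 to 46.5). Kcnmb4 was at 23.5% against 14.3% at E13.5 and Kcnf1 at 9.497% against 2.86%. At P1 the differences were 5.18 percentage points (-7.28 to 16.96) for Kcnmb4 and 4.04 percentage points (-3.97 to 11.05) for Kcnf1, with intervals that include 0. Kcnh8 passed in 14.7% (9.33 to 21.6%) and 3.23% (0.670 to 9.14%) of homozygote and heterozygote cells at P1, and in 14.8% against 2.44% at or below that level of Slc6a3 (12.4 points, 1.03 to 19.9), whereas P1 heterozygote cells without spike-in gave 9.82%. At E13.5 Kcnh8 was on the other side, at 15.1% of homozygote against 20% of heterozygote cells, a difference of -4.92 percentage points (-13.6 to 3.399). For Kcnh2, Kcnh6 (an ERG channel) and Kcnj16 the differences had the same sign at both stages, but each interval included 0.

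Of 13 partner genes of these channels with other symbols, 8 were high enough to test at each of the 6 main comparisons. Between E13.5 and P90, 5 of these 8 were 2-fold higher and 1 lower, where 20.3% and 22.6% of all genes were. Dpp10, a Kv4 partner, passed in 22.9% of cells at E13.5 and 67.7% at P90, and its relative Dpp6 in 78.6% and 98.2%. Cntnap2, which anchors Kv1 channels along the axon, went from 20.7% to 83.4%, and Amigo1, a Kv2 partner, from 10.7% to 40%. Lingo1, a BK partner, went from 43.6% to 23.7%. Between the adult Slc6a3-high and Nxph4-high cells, 1 partner was higher and none lower (all genes: 5.64% and 8.67%), namely Lrrc55, a BK gamma subunit, at 46.97% against 11.6%. Between Slc6a3-high and Gad2-high cells no partner was 2-fold apart in either direction (all genes: 6.42% and 8.81%). With age in Slc6a3-high cells 3 were higher, namely Dpp10, Amigo1 and Cntnap2, and Lingo1 was lower, from 70.9% to 15.2% (all genes: 11.7% and 18.7%). The share of Amigo1 differed there by 7.12 percentage points (-4.90 to 20.3), which is within counting error. Between genotypes 1 was lower at E13.5 (all genes: 3.12%), namely Dpp10 at 7.82% against 22.9%, with none at P1 (all genes: 3.25% higher and 1.98% lower).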

How the data were processed

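Single cells sorted for GFP were read with Smart-seq2. The authors aligned reads to mm10 with STAR, counted uniquely mapping reads per Ensembl gene and deposited raw counts and RPKM values (rpkmforgenes) for 39468 entries per cell. The deposited RPKM values are scaled by gene length and by the reads of each cell. Symbols, biotypes and coordinates were taken from GENCODE vM21 (GRCm38). Of the 2 entries for Kcnmb4, the one passing in more cells was used.

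Cells were kept with over 100000 reads and at least 15% of the 31526 entries with any read detected (3.4% at P90), which left 1649 of 1699. A further 208 cells with at least 3 markers of a non-neuronal type over an RPKM of 10 were left out (147 astrocyte, 59 oligodendrocyte lineage, 14 microglia, 12 endothelial or mural, some under more than 1 list). The plan named the oligodendrocyte list only, and the other 3 were added after astrocyte markers had been seen at P7. The kept heterozygote cells were 140 at both E13.5 and E15.5, then 185 at E18.5, and after birth 256 (P1, 93 with spike-in), 73 (P7) and 325 (P90), and the homozygote cells 179 at E13.5 and 143 at P1. Classes held 66 Slc6a3-high, 147 Nxph4-high and 57 Gad2-high cells at P90 and 206, 61 and 61 at E18.5 to P7. No doublet caller was run. Some members enter the counts but are not reported here by name. Members and lists were chosen with earlier results of these data known.

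Shares of cells over an RPKM of 10 carry exact Clopper-Pearson intervals, and differences carry Newcombe intervals. A share of 0 is given with the limit of 3 counts of the total, which lies below the upper end of the exact interval. A 2-fold call compared mean RPKM after adding 0.5, in genes with a mean of at least 5. With 1 sample a group no p-value was computed. The 2-fold calls were run on simulated counts with known fold changes, and the interval functions were compared with reference values. A difference is called outside counting error where its interval excludes 0. Cells were also thinned to 100000 reads (seed 1). The genes named are the 8 largest rises and falls in share from E13.5 to P90, the 6 (against Nxph4-high) and 5 (against Gad2-high) largest class differences in each direction at P90, the 5 in each direction whose smaller genotype difference of the same sign at E13.5 and P1 was largest, the 5 largest in each direction between P90 and E18.5 to P7 in Slc6a3-high cells, the leading gene of each family, the genes next to the limit, and a list of well-known channels. Members called 2-fold between genotypes or classes that this rule did not name were added after their values were seen. Alternatives changed the threshold, the pseudocount, the filters, the scaling and the plates used. Python 3.11.15, numpy 2.4.6, pandas 2.3.3, scipy 1.17.1 and matplotlib 3.10.9 were used.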

Additional observations from a re-analysis of the deposited data

Results flagged for a closer look

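The cells left out of every comparison differed from the pooled kept cells in some channel genes, which flagged them. Most of them came from P1 and P7, whereas the kept cells pool all stages. In the cells with at least 3 astrocyte and fewer than 3 oligodendrocyte-lineage markers, Kcnj10 (Kir4.1, the main glial inward rectifier) passed an RPKM of 10 in 70.99% (62.4 to 78.6%), against 0.902% of the kept cells. Kcne1l, an auxiliary subunit, passed in 82.4% of them, Kcnj16 (Kir5.1, a partner of Kir4.1) in 45.8%, Kcnip3 in 61.8% and Kcnd2 in 35.1%. Among kept cells these stood at 4.02% for Kcne1l, 9.99% for Kcnj16, 38.8% for Kcnip3 and 17.6% for Kcnd2.

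In the 43 cells with at least 3 oligodendrocyte-lineage and fewer than 3 astrocyte markers, Kcnip3 passed in 74.4%, Kcna6 in 55.8%, Kcnd2 in 44.2%, Kcnj10 in 39.5% and Kcna2 in 11.6%. Among kept cells these stood at 38.8%, 40.2%, 17.6%, 0.902% and 4.16% in that order. Some groups of kept cells stood near the left-out cells, with Kcna6 at 56.3% and Kcna2 at 12% of P90 cells. Kcnip3 was at 63.3% in Nxph4-high P90 cells. No explanation was tested.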

How the results depend on the processing

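Of 12 counts of 2-fold members, 8 moved with how the mean was taken and 8 without the filter on low values. The share of all genes called is given at the main setting only, so the counts below are set against no background. With means of log values, P90 against E13.5 gave 10 higher and 1 lower in place of 19 and 7, Slc6a3-high cells gave 4 higher and 2 lower with age in place of 5 and 9, Slc6a3-high against Nxph4-high cells 5 lower in place of 12, against Gad2-high cells 7 lower in place of 11, E13.5 genotypes 0 and 0, and P1 genotypes 1 higher. Without the minimum mean the counts were 30 higher for P90 against E13.5, 17 lower for Slc6a3-high cells with age, 10 higher and 20 lower against Nxph4-high cells, 10 higher against Gad2-high cells, 5 and 5 for E13.5 genotypes and 7 lower for P1 genotypes. With a minimum mean of 10 they were 9 and 4 for P90 against E13.5, 6 lower against Gad2-high cells, 0 higher for E13.5 and 1 higher for P1 genotypes.

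The genotype counts rested on 1 or 2 genes in each direction. At E13.5, with genes detected taken over all entries, 0 were higher and 4 lower, and in Nxph4-high cells only 2 were higher. At P1, 4 were higher with a pseudocount of 0.1, 1 was higher with median-ratio scaling, without the marker filter, with 2 oligodendrocyte markers or with the planned filter, and 0 were higher and 1 lower with every heterozygote cell.

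Leaving out 1 plate at a time gave 17 to 18 higher and 7 lower for P90 against E13.5, 4 to 6 and 8 to 10 for Slc6a3-high cells with age, 5 to 7 and 11 to 17 against Nxph4-high cells, 5 to 7 and 8 to 15 against Gad2-high cells, 0 to 1 and 2 to 3 for E13.5 and 1 to 4 and 1 to 3 for P1 genotypes. Of 67 differences in share that the naming rule ranked as largest, thinning kept all 67 within their interval and sign, a threshold of 1 moved 14 and one of 50 moved 31. Differences given only because a gene is well known were not in this check. Kcnmb4 between E13.5 and P90 was 1 of those, at 18.02 points and 7.45 points when thinned. At an RPKM of 50, Kcnk1 in Slc6a3-high cells with age (-1.65 points) and Kcnmb4 between E13.5 genotypes (-4.88 points) changed sign. No paired analysis was possible because each group is 1 sample and no test was run. Rare genes are limited by cell number, most of all in the 57 Gad2-high and 15 homozygote Slc6a3-high cells.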
